A study of Mus musculus with 27 samples.

Results

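The clustered protocadherins are the 58 genes of 39338 in the deposited table whose symbol is Pcdha, Pcdhac, Pcdhb, Pcdhga, Pcdhgb or Pcdhgc followed by digits alone. They form 3 clusters, with 14 alpha, 22 beta and 22 gamma members, which are described apart. Their RNA was measured in 27 libraries of EGFP-KASH+ nuclei, which were sorted by FACS from the motor cortex of single mice. EGFP-KASH is a green fluorescent protein anchored to the nuclear membrane that marks the transduced nuclei.

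C9-BACexp mice, labelled C57BL/6J-Tg(C9ORF72_i3)112Lutzy/J, carry a bacterial artificial chromosome with the human C9ORF72 gene and its expanded repeat, and C57BL/6J littermates served as controls. All mice received an AAV vector of the PHP.eB capsid for EGFP-KASH under the general CAG promoter, which is not specific to neurons. The labels give the cell type as primary neuron, and by the study's staining most EGFP-KASH was in neurons and little in astrocytes or microglia. In each genotype 1 group had this vector alone (EGFP-KASH only), 1 also had a vector for the RNA-cutting effector with a non-targeted crRNA (NTG), and 1 had the effector with crRNA-13, which is directed at the human C9ORF72 transcript. The effector is RfxCas13d-N2V8 in the study's methods, while the labels of the NTG mice name RfxCas13d. The methods give 6 weeks of age at injection and 2 months until collection for the mice with an effector, and neither for the mice with EGFP-KASH only. Of the C9-BACexp mice, 3 had EGFP-KASH only, 6 had NTG and 6 had crRNA-13, and of the C57BL/6J mice 4, 5 and 3.

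Clustered protocadherins are cadherin-like proteins of the neuronal surface. In the alpha and gamma clusters each gene has its own variable exon, with its own promoter, that is spliced to 3 constant exons shared by the whole cluster, whereas beta genes are encoded largely by a single exon. A neuron expresses a small set of the alpha, beta and gamma isoforms, chosen largely at random through promoter methylation and through DNA loops of CTCF and cohesin. The C-type isoforms (Pcdhac1, Pcdhac2, Pcdhgc3, Pcdhgc4 and Pcdhgc5) are in general not chosen this way and are expressed more broadly. The proteins bind copies of themselves on other membranes, and this homophilic recognition underlies the self-avoidance of neurites and the tiling of axons.

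In GENCODE vM39 on the GRCm39 build, all 58 genes lie on the plus strand of chromosome 18, with the alpha cluster at 37063237 to 37320716, the beta cluster at 37397991 to 37657532 and the gamma cluster at 37794846 to 37975014. Alpha and gamma genes are nested. The span of Pcdha1 holds the starts of the 13 other alpha members and that of Pcdhga1 the starts of the 21 other gamma members, while Pcdhac2 and Pcdhgc5, the last of their rows, hold none. Beta genes are short and mostly apart, with spans of 2588 to 16220 bp, and each holds at most 1 other start. Because the authors' estimated counts come from spliced and unspliced transcripts, a read from a constant exon or from within the nest fits several alpha or gamma genes, and its assignment to 1 of them is uncertain. A read moved between members stays within the sum of its cluster, but since the authors' counts are scaled by transcript length, such a move can also change the sum, and by how much was not tested. The alpha and gamma values of single genes are therefore given as estimates, and shares of counts, not levels, are compared between them.

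The libraries held 21508829 to 36777972 counts, and 55 members passed the filter on low values. All values are CPM, counts scaled to a common library total after TMM normalisation. In CPM, 3 counts, the floor used for a value of 0, came to 0.0801 to 0.144 and cover counting error only. Markers of other cells were detected, which for bulk nuclei means that fewer cells of a type and less RNA per cell cannot be told apart. The summed oligodendrocyte markers ranged from 708 to 4641 CPM in C9-BACexp crRNA-13 mice and from 380 to 2057 CPM in C57BL/6J NTG mice, and 1 C9-BACexp mouse with NTG had 7844 CPM over 9 striatal markers. Excitatory markers were present in every library, with Slc17a7, a vesicular glutamate transporter, at 140 to 293 CPM.

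Summed over their members, the 3 clusters gave similar totals in the 6 groups. The alpha sum was 186 to 350 CPM over the 27 libraries, with a median of 235. The gamma sum was 216 to 437 CPM, with a median of 295. The beta sum was lower, at 40.2 to 77.6 CPM with a median of 60.9, from genes that are far shorter than the nested alpha and gamma spans.

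**Figure D1:**
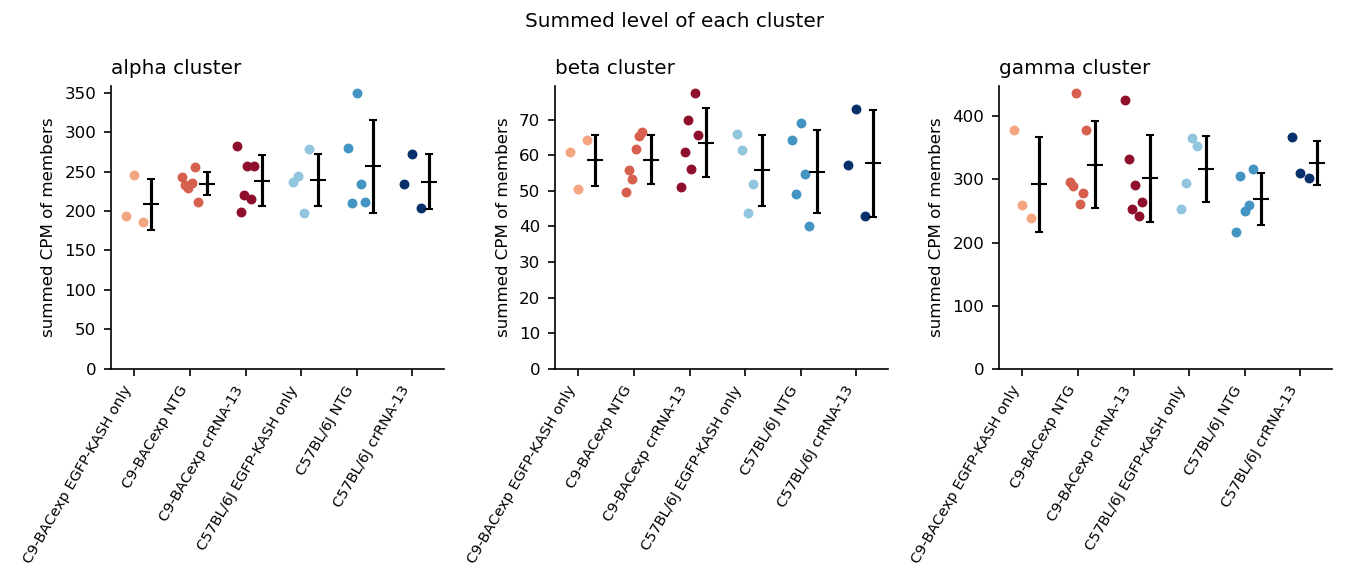
Summed CPM of the alpha, beta and gamma members in each library (points) of the 6 groups, with the group mean and SD. The groups of each cluster overlap, with means of 209 to 257 CPM for alpha, 55.4 to 63.5 CPM for beta and 269 to 326 CPM for gamma.

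In C9-BACexp mice the alpha sum was 209 ± 32.4 CPM with EGFP-KASH only (SD, n = 3), 235 ± 14.5 CPM with NTG (n = 6) and 239 ± 31.7 CPM with crRNA-13 (n = 6). In C57BL/6J mice it was 239 ± 33.0 CPM (n = 4), 257 ± 58.9 CPM (n = 5) and 237 ± 34.6 CPM (n = 3). The groups overlapped in each of the 9 pairs compared, and the log2 differences of their means lay between −0.20 and 0.19.

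For beta, the C9-BACexp groups had 58.6 ± 7.24 CPM with EGFP-KASH only, 58.8 ± 6.82 CPM in the NTG mice and 63.5 ± 9.63 CPM with crRNA-13. The C57BL/6J groups had 55.8 ± 9.95, 55.4 ± 11.6 and 57.8 ± 15 CPM. Here too the groups overlapped in all 9 pairs, and the log2 differences were −0.01 to 0.14.

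The gamma sum was 292 ± 75.2 CPM with EGFP-KASH only, 323 ± 68.9 CPM in the NTG mice and 302 ± 68.6 CPM with crRNA-13 in C9-BACexp mice, and 317 ± 52.4, 269 ± 41.2 and 326 ± 35.2 CPM in C57BL/6J mice. All 9 pairs of groups overlapped, with log2 differences of −0.23 to 0.28. The sums are a description and were not tested.

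Within each sum, a few nested genes held most of the counts. Pcdha1, Pcdha2, Pcdha3 and Pcdha5, from the start of the alpha row, held 66.1 to 90.5% of the alpha counts of a library (median 82.8%). Pcdhga2, Pcdhga3, Pcdhgb1, Pcdhga4 and Pcdhgb2, from the start of the gamma row, held 65.9 to 88.2% of the gamma counts (median 74.8%). Beta counts were spread more evenly, and Pcdhb14 to Pcdhb20 together held 55.8 to 67.3% (median 60.9%). The highest single beta member of a library held 9.59 to 13.6% of the beta counts, against 25.2 to 50.3% for alpha and 20.5 to 48.5% for gamma.

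**Figure D2:**
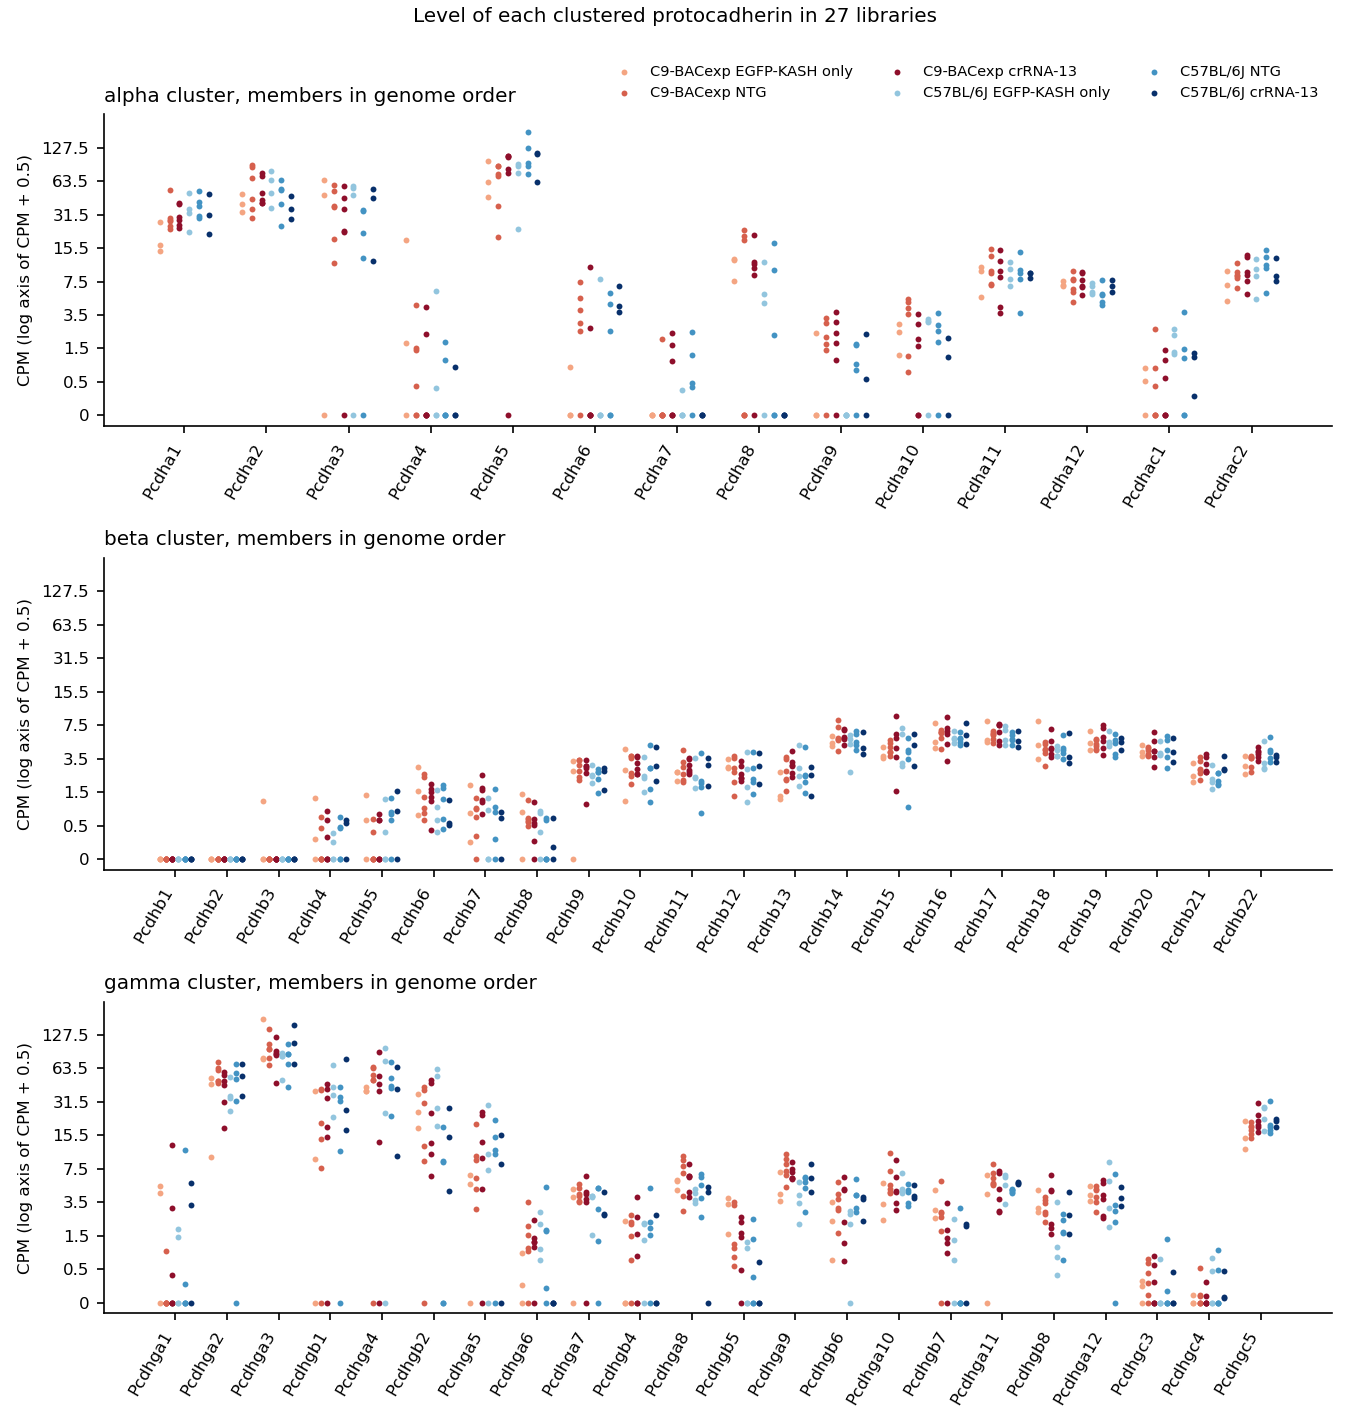
CPM of each member in order along the chromosome, on a log scale, for the 27 libraries (points), with 1 panel for each cluster. Estimates of alpha and gamma members early in the row range from 0 to 179 CPM, whereas Pcdhb14 to Pcdhb22 lie between 0.977 and 9.10 CPM.

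Pcdha5 had the largest alpha estimate in 20 of the 27 libraries, Pcdha2 in 5 and Pcdha3 in 2. In C9-BACexp mice Pcdha5 was 96.7, 62.3 and 45.9 CPM with EGFP-KASH only, 19.6, 72.4 and 87.2 CPM as the lowest, median and highest with NTG, and 0, 93.3 and 108 CPM with crRNA-13. In C57BL/6J mice it was 87.2, 75.3, 23.2 and 90.7 CPM with EGFP-KASH only, 128, 86.4, 176, 74.4 and 93.0 CPM with NTG, and 112, 115 and 62.5 CPM with crRNA-13. A single library, C9-BACexp crRNA-13 replicate 2, was listed at 0, although the other 5 of its group had 75.5 CPM or more.

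Pcdha3, which Pcdha4 separates from Pcdha5 in the row, moved in the same abrupt way. With EGFP-KASH only it was 0, 64.8 and 47.2 CPM in C9-BACexp mice and 0, 54.8, 47.6 and 57.5 CPM in C57BL/6J mice. With NTG it was 11.1, 37.3 and 58.5 CPM (lowest, median and highest) in C9-BACexp mice and 12.5, 21.3, 34.8, 33.9 and 0 CPM in C57BL/6J mice. Every group that held a 0 also held libraries over 30 CPM, and the groups overlapped.

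Pcdha1 and Pcdha2, the outermost genes of the alpha row, were never at 0. Pcdha1 ranged from 14.6 to 52.4 CPM and Pcdha2 from 24.5 to 88.2 CPM. In C9-BACexp EGFP-KASH only mice, Pcdha1 was 14.6, 26.8 and 16.6 CPM, against 35.6, 49.9, 32.8 and 22 CPM in C57BL/6J mice. These groups overlapped, and the fitted log2 difference of −0.84 (SE 0.28) did not pass the test (edgeR's quasi-likelihood F test, adjusted p = 0.121).

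At the other end of the row the estimates were lower, but uneven in spread. On the log2(CPM + 0.5) scale the SD within groups was 1.02 for Pcdha9, 1.17 for Pcdha10 and 0.55 for Pcdha11. It was 0.96 for Pcdhac1 and 0.42 for Pcdhac2, against 0.41 for Pcdha1 and 0.51 for Pcdha2. Pcdha12 was 7.51, 7.02 and 6.85 CPM in C9-BACexp EGFP-KASH only mice and 5.99, 7.33, 5.65 and 6.81 CPM in C57BL/6J mice. Its whole range was 4.38 to 9.46 CPM, and its SD within groups of 0.25 on the log2(CPM + 0.5) scale was the lowest of the alpha members. Pcdha8, in the middle of the row, was at 0 in 10 libraries, among them all 3 C57BL/6J crRNA-13 mice, and reached 22.9 CPM elsewhere. The other alpha members (Pcdha4, Pcdha6, Pcdha9, Pcdha10 and Pcdha11) had means of 1.23 to 9.07 CPM, and Pcdha4, with a mean of 1.64 CPM, was at 0 in 14 libraries.

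The beta cluster was divided by position. Pcdhb1 and Pcdhb2 were at 0 in all 27 libraries, and Pcdhb3 was counted in 1 of them, C9-BACexp EGFP-KASH only replicate 2, at 1.16 CPM. These 3 genes did not pass the filter on low values. Pcdhb4 to Pcdhb8 had means of 0.289 to 1.22 CPM, Pcdhb9 to Pcdhb13 of 2.45 to 2.83 CPM, and Pcdhb14 to Pcdhb22 of 2.63 to 6.03 CPM. Per kb of gene span, where short single genes can be compared, Pcdhb15 stood highest with a mean level of 1.60 CPM, before Pcdhb17 (1.29), Pcdhb20 (1.21) and Pcdhb16 (1.13), and Pcdhb4 had 0.078.

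Pcdhb16 and Pcdhb17 had the largest beta count in 12 and 8 libraries. Pcdhb16 was 4.48, 5.11 and 7.85 CPM in C9-BACexp EGFP-KASH only mice, and its lowest, median and highest values were 4.35, 6.38 and 6.72 CPM with NTG and 3.28, 6.38 and 9.0 CPM with crRNA-13. In C57BL/6J mice it was 5.61, 6.56, 5.0 and 5.51 CPM with EGFP-KASH only, 5.5, 5.65, 6.48, 5.09 and 4.77 CPM with NTG, and 6.00, 7.79 and 4.96 CPM with crRNA-13. The 6 groups overlapped, with means of 5.5 to 6.25 CPM.

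Pcdhb17 was the steadiest of the beta genes that passed the filter, with an SD within groups of 0.23 on the log2 scale, and it ranged from 4.63 to 8.23 CPM. Pcdhb21, with an SD of 0.24, ranged from 1.65 to 3.87 CPM. Pcdhb14 ranged from 2.52 to 8.32 CPM, and its lowest value came from C57BL/6J EGFP-KASH only replicate 4. Low counts were the least steady, as in Pcdhb5 (SD 0.75, 0 to 1.54 CPM) and Pcdhb7 (SD 0.73, 0 to 2.32 CPM), which overlapped between all groups.

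Gamma estimates were led by Pcdhga3 in 21 of 27 libraries. It was 179, 76.9 and 78.3 CPM in C9-BACexp EGFP-KASH only mice, with lowest, median and highest values of 69.0, 95.6 and 146 CPM with NTG and 46.9, 86.5 and 123 CPM with crRNA-13. In C57BL/6J mice it was 87.5, 49.9, 82.0 and 82.4 CPM with EGFP-KASH only, 105, 86.1, 85.9, 43.3 and 69.4 CPM with NTG, and 156, 69.0 and 108 CPM with crRNA-13. The groups overlapped, and no library was at 0.

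Pcdhga2, Pcdhgb1 and Pcdhga4, close to Pcdhga3 in the row, dropped to 0 in 1, 4 and 3 libraries. Pcdhga4 was 43.4, 39.6 and 39.9 CPM in C9-BACexp EGFP-KASH only mice, and 0, 24.9, 74.7 and 97.5 CPM in C57BL/6J mice, so that 1 group was tight and the other covered its whole range. With NTG it was 0, 52.8 and 65.4 CPM (lowest, median and highest) in C9-BACexp mice and 42.5, 52.5, 43.7, 73.3 and 23.6 CPM in C57BL/6J mice. Pcdhgb1 was 39.5, 0 and 9.31 CPM in C9-BACexp EGFP-KASH only mice and 23, 67.9, 36.4 and 43.3 CPM in C57BL/6J mice. Its groups overlapped through the first of these values.

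The remaining A-type and B-type gamma genes had means of 1.21 (Pcdhga6) to 22.8 CPM (Pcdhgb2). Pcdhga9 was the steadiest of those with values in every library after the C-type Pcdhgc5, with an SD within groups of 0.39 on the log2 scale and a range of 2.08 to 10.5 CPM. Pcdhga1 was at 0 in 15 libraries and Pcdhgb4 in 9.

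Of the C-type isoforms, Pcdhgc5 and Pcdhac2 were counted in every library and the other three were lower. Pcdhgc5, a gamma isoform of mature neurons, was 11.6, 14.6 and 20.9 CPM in C9-BACexp EGFP-KASH only mice, against 16.9, 22, 27.5 and 28.2 CPM in C57BL/6J mice. With NTG its lowest, median and highest values in C9-BACexp mice were 14.7, 17.9 and 20.5 CPM, and the C57BL/6J values were 16.4, 19.5, 17.2, 18.5 and 32.3 CPM. With crRNA-13 they were 16.6, 20.2 and 30.8 CPM in C9-BACexp mice and 22.1, 18.5 and 21.1 CPM in C57BL/6J mice. All groups overlapped, and the fitted log2 difference of −0.58 (SE 0.19) between genotypes with EGFP-KASH only did not pass the test (edgeR's quasi-likelihood F test, adjusted p = 0.120).

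Pcdhac2, the alpha isoform needed for the tiling of serotonergic axons, ranged from 4.80 to 14.9 CPM. It was 4.80, 6.91 and 9.37 CPM in C9-BACexp EGFP-KASH only mice and 5.08, 8.56, 9.81 and 12.3 CPM in C57BL/6J mice, and the groups overlapped. Pcdhac1 was at 0 in 9 libraries and at most 3.72 CPM. With EGFP-KASH only it was 0, 0.828 and 0.516 CPM in C9-BACexp mice, all below the 1.34, 1.27, 2.13 and 2.50 CPM of C57BL/6J mice, a separation that did not pass the test (log2 difference −2.97, SE 2.0, edgeR's quasi-likelihood F test, adjusted p = 0.506). With NTG and with crRNA-13 its genotypes overlapped.

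Pcdhgc3, which acts in dendrite branching, and Pcdhgc4, which is needed for the survival of cortical interneurons, were close to the floor. Pcdhgc3 was at 0 in 13 libraries and at most 1.35 CPM, and Pcdhgc4 at 0 in 14 and at most 0.977 CPM. Their highest values came from the same library, C57BL/6J NTG replicate 5, which also held the highest Pcdhac1, Pcdhac2 and Pcdhgc5 of the series.

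Alpha and gamma genes were unsteady between mice of 1 group while their sums were not. The median SD of the log2(CPM + 0.5) values within groups was 0.99 over the 14 alpha members and 0.87 over the 22 gamma members, and 0.42 over the beta members. For the sums it was 0.21, 0.27 and 0.25. The median over the 11440 tested genes that averaged 5 CPM or more was 0.27. Above the 95th percentile of these genes (0.72) lay 9 alpha, 14 gamma and 2 beta members, many of which averaged below 5 CPM themselves. Among all tested genes, Pcdhb5 and Pcdhb7 lay at percentiles 90.9 and 89.9, and Pcdha7, Pcdhga8, Pcdhgb6 and Pcdhga12 at 94.1, 90.8, 93.2 and 91.5. The others of these members stayed above the 95th percentile there. Pcdha3 had the widest spread, at 2.50, and then Pcdhga4, at 2.38, and Pcdhgb1, at 2.31. With a pseudocount of 2 CPM, which weighs values near 0 less, the medians were 0.48 for alpha, 0.47 for gamma and 0.25 for beta.

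**Figure D3:**
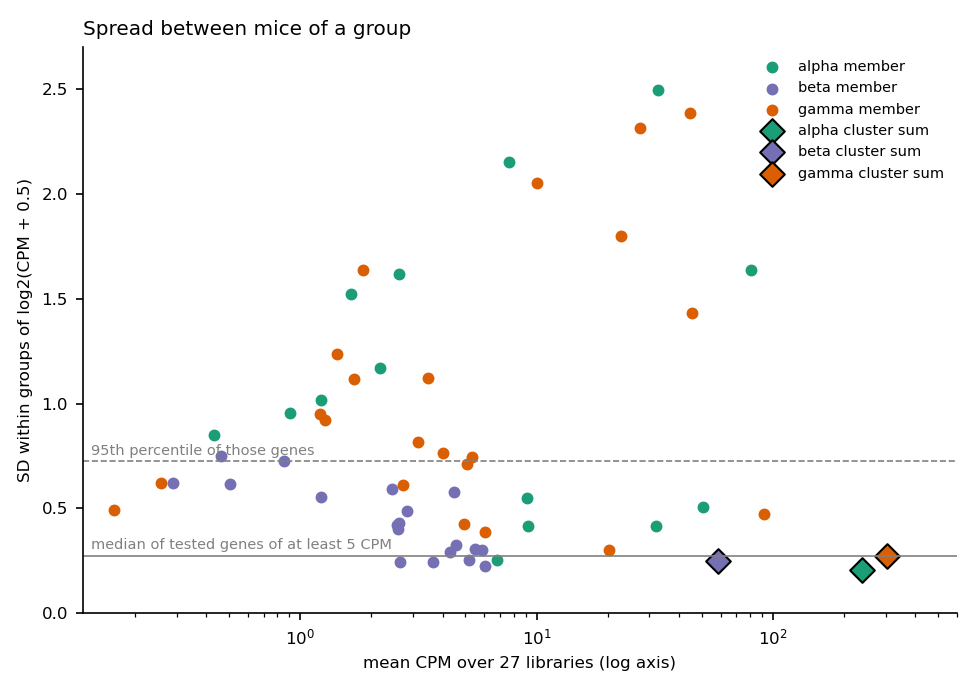
SD within groups of log2(CPM + 0.5) for each tested member against its mean CPM (log scale), coloured by cluster, with diamonds for the cluster sums. Grey lines mark the median (solid) and the 95th percentile (dashed) of tested genes that averaged 5 CPM or more. Alpha and gamma members reach SDs of over 2, and beta members with a mean above 1 CPM lie at or below 0.59.

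Values of 0 in well-counted genes were much more frequent in these clusters than elsewhere. Of all genes averaging 20 CPM or more, 16 of 6818 (0.235%) had a library at 0, and 6 of these were protocadherins (Pcdha3, Pcdha5, Pcdhga2, Pcdhgb1, Pcdhga4 and Pcdhgb2) of the 10 members in this class. From 5 CPM upward, 67 of 11440 genes (0.586%) and 10 of 22 members (45.5%) had such a library, and none of the 4 beta members did. A library had 1 to 5 alpha, 3 to 6 beta and 1 to 9 gamma members at 0, with the most gamma genes at 0 in C57BL/6J NTG replicate 1. For alpha, the variance of the sum was 0.600 times the summed variances of the members, for gamma 1.26 times and for beta 5.76 times. Alpha estimates thus offset each other in part across libraries, and beta counts moved together. This is a property of the deposited estimates, and it was not tested whether it lies in the RNA or in the assignment of reads.

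Members were then compared across the groups, to ask whether the C9-BACexp genotype, the effector or crRNA-13 changed them. Few members passed the test in any comparison. With the spread between mice described above, a member without a call is not shown to be unchanged. Those that passed had means over all libraries of 0.433 (Pcdha7), 2.45 (Pcdhb9), 2.72 (Pcdhgb8) and 5.08 CPM (Pcdhga11). Between genotypes with NTG, 0 of 55 members tested passed (edgeR's quasi-likelihood F test, fold change over 1.2 and adjusted p under 0.05), where 6.60% of all 21768 genes did. An unadjusted p under 0.05 was found for 5 members and 26.0% of all genes. Limma-trend called 0 members and 6.75% of all genes, and DESeq2 1 member and 10.3%. Over single members, the median fitted log2 difference was 0.29 for alpha, 0.11 for beta and 0.43 for gamma, against 0.02 for all genes. The cluster sums, taken without the factors, had log2 differences of −0.13 for alpha, 0.08 for beta and 0.26 for gamma, with overlap of the groups. In the same comparison 9 of 10 oligodendrocyte, 3 of 6 precursor, 4 of 8 deep-layer and 3 of 9 striatal markers passed as higher, and 3 of 8 astrocyte, 2 of 6 upper-layer and 1 of 9 inhibitory neuron markers as lower. Their part in the values of the protocadherins was not tested.

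Of the 5 members with a low unadjusted p in this comparison, Pcdhga9 was 4.99, 7.74 and 10.5 CPM in C9-BACexp NTG mice and 4.91, 6.30, 6.06, 5.57 and 2.78 CPM in C57BL/6J mice. The groups overlapped, with a log2 difference of 0.61 (SE 0.23) that did not pass the test (edgeR's quasi-likelihood F test, adjusted p = 0.178). Pcdhgb8, Pcdhga10, Pcdhb11 and Pcdhb21 were the others, with log2 differences of 0.82, 0.53, 0.54 and 0.40.

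With crRNA-13, 1 member differed between genotypes, Pcdha7, where 1.08% of all genes were called. With EGFP-KASH only, 3 members did, Pcdha7, Pcdhgb8 and Pcdhga11, where 2.86% of all genes were called. In C9-BACexp mice crRNA-13 and EGFP-KASH only differed in Pcdha7, Pcdhb9 and Pcdhga11, against 0.910% of all genes. In these 3 comparisons limma-trend called 0, 3 and 2 members, where it called 0.891, 2.83 and 0.836% of all genes, and DESeq2 3, 6 and 4 members, against 2.69, 5.94 and 2.48%. The members' medians of the log2 difference were 0.11, −0.01 and 0.24 in these comparisons, and those of all genes were −0.0036, −0.03 and 0.03. The last 2 comparisons share the 3 C9-BACexp EGFP-KASH only mice. In the genotype comparison with EGFP-KASH only, 4 of 10 oligodendrocyte and 2 of 6 precursor markers also passed as higher, and 1 of 6 endothelial and 1 of 7 excitatory markers as lower. In that with crRNA-13 1 oligodendrocyte marker passed as higher and 2 of 8 astrocyte markers as lower, and their part in these calls was not tested.

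**Figure D4:**
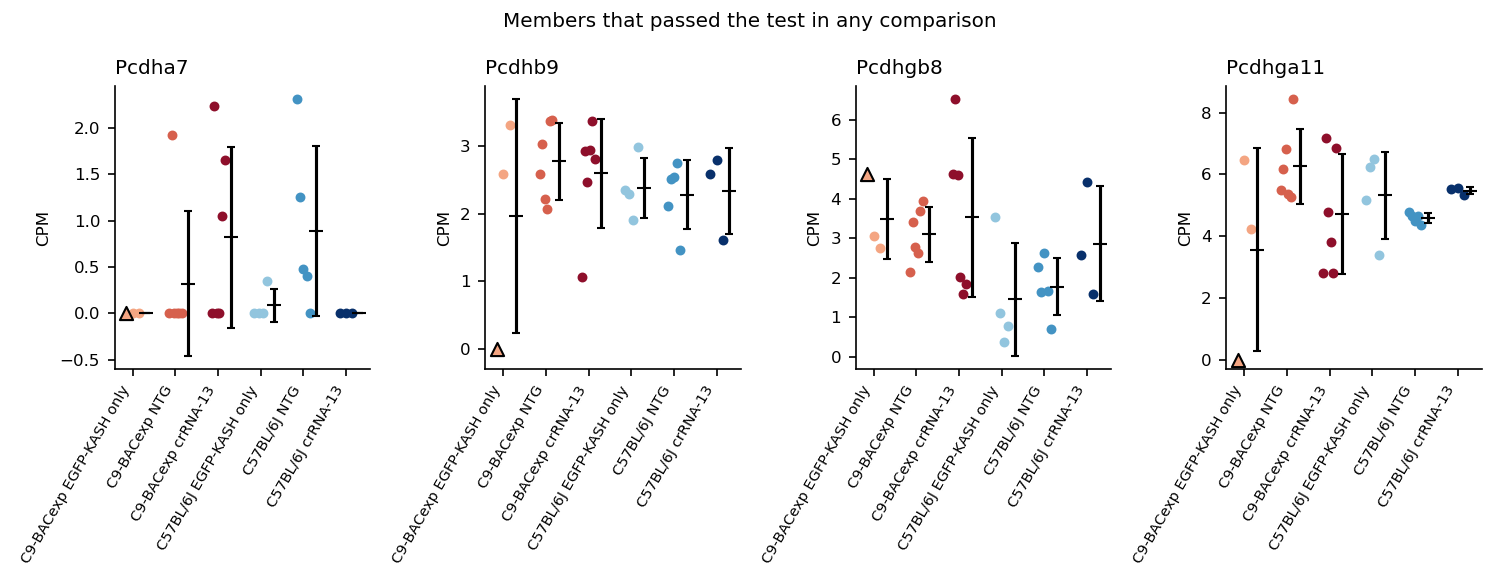
CPM of Pcdha7, Pcdhb9, Pcdhgb8 and Pcdhga11 in every library of the 6 groups (points), with the group mean and SD (bars). The triangle marks C9-BACexp EGFP-KASH only replicate 2, which is at 0 for Pcdhb9 and Pcdhga11 and the highest of its group for Pcdhgb8.

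Pcdha7 was counted in 9 of the 27 libraries and at most at 2.32 CPM. It was 0 in all 3 C9-BACexp EGFP-KASH only mice and in all 3 C57BL/6J crRNA-13 mice. In C9-BACexp crRNA-13 mice it was 0, 0.523 and 2.24 CPM (lowest, median and highest), and in C57BL/6J EGFP-KASH only mice 0, 0, 0 and 0.353 CPM. Each group with counts also held zeros, so that all groups overlapped.

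The floor of 3 counts in each library covers counting error and not the assignment of reads between genes. The mean of 0.824 CPM in C9-BACexp crRNA-13 mice was 5.89 times the highest floor of the C57BL/6J crRNA-13 mice (edgeR's quasi-likelihood F test between these groups, adjusted p = 0.0387). It was 6.87 times that of the C9-BACexp EGFP-KASH only mice (adjusted p = 0.00741 by edgeR). Between genotypes with EGFP-KASH only the call (adjusted p = 0.0152 by edgeR) rested on 1 library, and the C57BL/6J mean of 0.0882 CPM lay below the floor, so no fold is given. When single libraries were left out, the calls were kept in 4 of 9, 7 of 9 and 4 of 7 fits. All 3 calls ended without factors, with 2 factors, by limma-trend and in the replicate block with 4 factors, and over all alternatives the adjusted p ranged from 7.72e-12 to 0.801, 2.22e-14 to 0.810 and 9.72e-10 to 1. Leaving out C9-BACexp EGFP-KASH only replicate 2 or 5 ended the last 2 calls, as did C57BL/6J EGFP-KASH only replicate 5 for the genotypes. Since all alpha genes share their constant exons with Pcdha7, its estimate is uncertain at these counts.

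Pcdhgb8 is the last B-type gene of the gamma row. With EGFP-KASH only it was 4.64, 3.06 and 2.76 CPM in C9-BACexp mice and 3.55, 1.1, 0.387 and 0.787 CPM in C57BL/6J mice. A single C57BL/6J library lay among the C9-BACexp values and the 3 others lay below them. The fitted log2 difference was 1.61 (SE 0.37, edgeR's quasi-likelihood F test, adjusted p = 0.0193), and the call was kept in 6 of 7 fits with 1 library left out, all but that without C57BL/6J replicate 4. It was lost with 2 factors (adjusted p = 0.0533 by edgeR), without factors (log2 difference 1.27, adjusted p = 0.614) and in the replicate block with 4 factors (1.46, adjusted p = 0.108), and over all alternatives the adjusted p ranged from 0.00141 to 0.665.

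Its other groups did not repeat this as calls. With NTG, Pcdhgb8 was 2.14, 3.09 and 3.95 CPM (lowest, median and highest) in C9-BACexp mice and 2.28, 1.63, 2.62, 1.66 and 0.714 CPM in C57BL/6J mice, with overlap and a log2 difference of 0.82 (SE 0.29, edgeR's quasi-likelihood F test, adjusted p = 0.153). With crRNA-13 it was 1.59, 3.31 and 6.52 CPM in C9-BACexp mice and 2.59, 4.43 and 1.58 CPM in C57BL/6J mice, and the groups overlapped. Whether the genotype difference itself differed between EGFP-KASH only and the other vectors was not tested.

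Pcdhga11 and Pcdhb9 were called through 1 library. Pcdhga11, an A-type gamma gene, was 0, 6.48 and 4.22 CPM in C9-BACexp EGFP-KASH only mice, 5.18, 6.23, 6.49 and 3.39 CPM in C57BL/6J mice, and 2.79, 4.29 and 7.18 CPM (lowest, median and highest) in C9-BACexp crRNA-13 mice. Apart from the 0 of replicate 2, the C9-BACexp values lay within the range of the C57BL/6J mice. The fitted log2 difference was −2.17 (SE 0.46) between genotypes and 1.96 (SE 0.44) between crRNA-13 and EGFP-KASH only (edgeR's quasi-likelihood F test, adjusted p = 0.0127 and 0.0188). Without replicate 2 these were 0.0047 and −0.20 (adjusted p = 1.00 and 0.841 by edgeR), so both calls were lost and both signs turned. Without the 4 factors of unwanted variation they were −0.57 and 0.40 (adjusted p = 0.908 and 0.940 by edgeR). Over all alternatives the adjusted p ranged from 0.000776 to 1 between genotypes and from 0.00209 to 0.967 for crRNA-13.

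Pcdhb9, whose span holds the start of Pcdhb10, was 0, 2.59 and 3.31 CPM in C9-BACexp EGFP-KASH only mice and 1.06, 2.87 and 3.37 CPM (lowest, median and highest) with crRNA-13. The library at 0 was again replicate 2, and the other values overlapped. The fitted log2 difference of 1.71 (SE 0.44, edgeR's quasi-likelihood F test, adjusted p = 0.0406) became −0.24 without this library (adjusted p = 0.747 by edgeR) and 0.39 without the factors (adjusted p = 0.941 by edgeR), and its adjusted p ranged from 0.00875 to 0.962 over all alternatives. The call was kept in 3 of 9 fits with 1 library left out, and was also lost without C9-BACexp crRNA-13 replicate 2, 3, 4, 6 or 7. It was lost too without the filter and with adjustment within the comparison. EGFP-KASH only replicate 2 of the C9-BACexp mice had 25314003 counts, within the range of the other libraries, but it stood apart on the factors of unwanted variation. Its scores, scaled to unit mean square, were 2.74 on the second factor, with 2.42 as the next highest, and 3.07 on the third, with 1.06 as the next. It held 5 alpha, 3 beta and 7 gamma members at 0, where a library had a median of 3, 4 and 3.

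In the further comparisons no member passed the test. Between C9-BACexp crRNA-13 and NTG mice, 0 of 55 members passed, where 0.482% of all genes did, and 0 had an unadjusted p under 0.05 by edgeR's test, against 10.3% of all genes. Limma-trend called 0 members and 0.423% of all genes, and DESeq2 1 member and 1.59%. In C57BL/6J mice the same comparison called 0 members and 0% of all genes by edgeR at the stricter limits set for it, with 4 members and 11.1% of all genes at an unadjusted p under 0.05. Limma-trend called 0 of either, and DESeq2 3 members and 0.850% of all genes.

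Between C9-BACexp NTG and EGFP-KASH only mice 0 members and 0.0322% of all genes were called by edgeR's test, with 7 members and 11.2% of all genes at an unadjusted p under 0.05. Limma-trend called 2 members and 0.0689% of all genes, and DESeq2 4 members and 1.06%. Between the C57BL/6J groups with these vectors 0 members and 0% of all genes were called by edgeR's test, with 3 members and 7.86% of all genes at that limit, while limma-trend called 0 of either and DESeq2 0 members and 0.262% of all genes. Between C57BL/6J crRNA-13 and EGFP-KASH only mice edgeR's test called 0 members and 0.404% of all genes, with 7 members and 11.2% of all genes at that limit. Limma-trend called 0 members and 0.441% of all genes, and DESeq2 5 members and 1.88%. The interaction of genotype with crRNA-13, relative to NTG, called 0 members and 0.00459% of all genes by edgeR's test, with 3 members and 10.5% of all genes at that limit. Limma-trend called 0 of either here, and DESeq2 3 members and 1.11% of all genes.

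Several of these low p-values came from genes that were at 0 in all 3 C57BL/6J crRNA-13 mice, namely Pcdha7, Pcdha8 and Pcdhga6. Pcdhga6, an A-type gamma gene, was 0, 1.74, 0.172, 1.70 and 5.03 CPM in C57BL/6J NTG mice and 0.719, 1.02, 2.74 and 2.06 CPM with EGFP-KASH only. The 0 of 1 NTG library made the first of these groups overlap with crRNA-13, while the second did not. None of the comparisons of Pcdhga6 with this group passed the test (edgeR's quasi-likelihood F test, adjusted p = 0.0598 between genotypes, 0.122 against NTG and 0.132 against EGFP-KASH only).

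Across the 27 libraries, after the group means were removed, members of a cluster moved together to different degrees. The correlations below describe libraries that share their scaling, and they were not tested. Over the 171 pairs of beta genes the median Pearson r was 0.27. Over the 91 alpha pairs it was 0.02 and over the 231 gamma pairs 0.05, with 41 and 108 pairs below 0.

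Pcdhb9 to Pcdhb22, the later part of the beta row, formed the most coherent block. Of their 91 pairs 87 were above 0, with a median r of 0.40, and Pcdhb10 and Pcdhb13 reached 0.87. The 10 pairs of the earlier Pcdhb4 to Pcdhb8, which had fewer counts, had a median of 0.07. Pairs of a beta and a gamma gene had a median of −0.13.

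**Figure D5:**
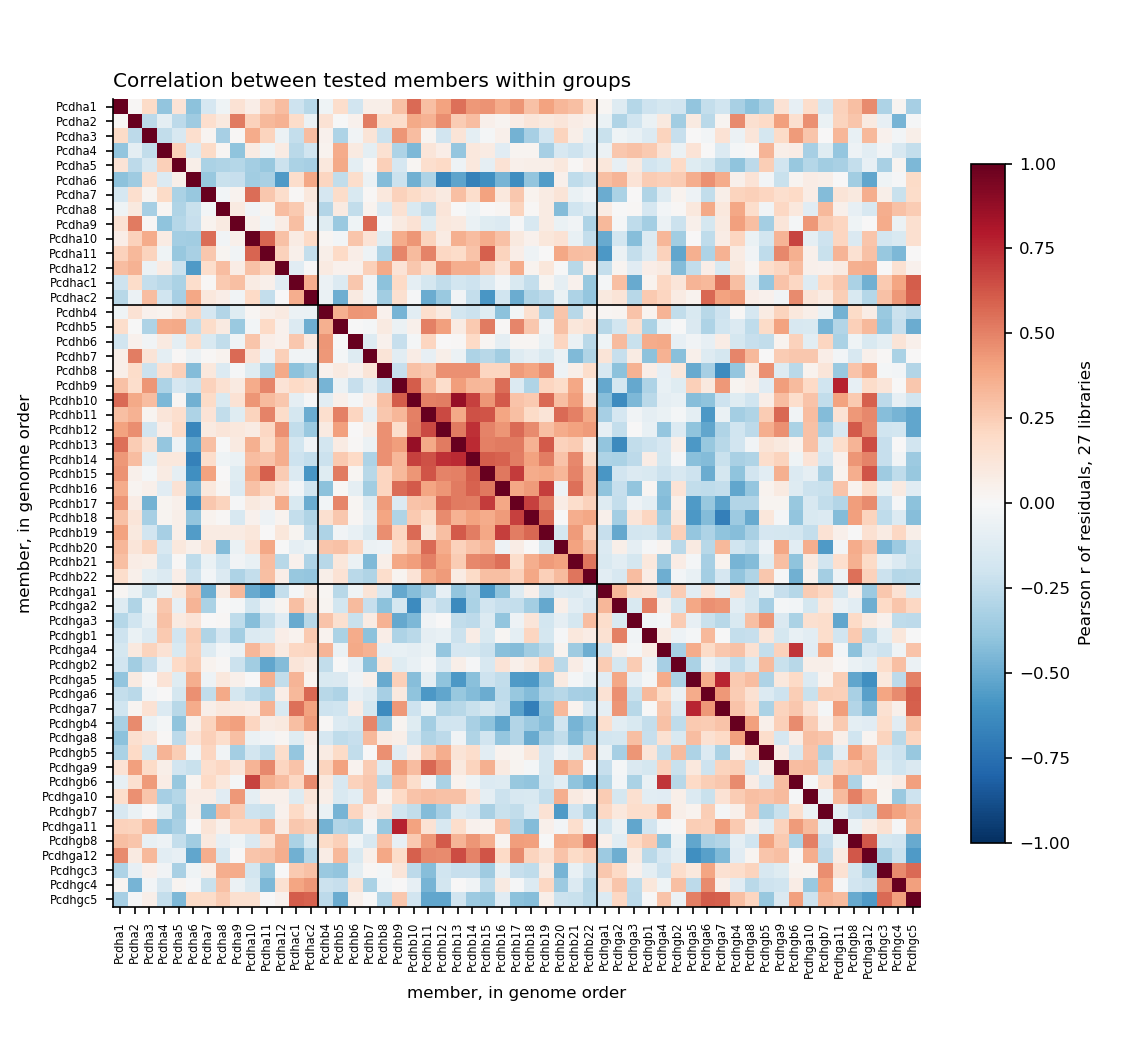
Pearson r of log2(CPM + 0.5) between members across 27 libraries after the group means were removed, with genes in chromosome order and lines between clusters. The block of Pcdhb9 to Pcdhb22 is mostly positive (87 of 91 pairs), while the alpha and gamma clusters mix positive and negative pairs.

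The C-type isoforms, although split between 2 clusters, were all positively correlated with each other. Their 10 pairs had r values of 0.26 to 0.60, with a median of 0.42, and the highest was that of Pcdhac1 and Pcdhgc5 (0.60), which lie in the alpha and the gamma cluster. Replicate 5 of the NTG littermate controls held the highest value of every C-type isoform. Pcdhgc3 and Pcdhgc4 were at 0 in 13 and 14 libraries. These r values were not computed without that replicate, so whether they rest on it was not tested. Such values were not limited to pairs of C-type isoforms, since Pcdhgc5 had an r of 0.61 with Pcdhga6 and 0.60 with Pcdhga7, both A-type genes. With the oligodendrocyte markers, r of Pcdhgc5 was 0.55, and 0.62 without the 2 libraries farthest from the median. The widest opposite pairs within a cluster were Pcdhga5 and Pcdhga12 (−0.62) and Pcdha6 and Pcdha12 (−0.57), and between clusters r went down to −0.68 for a beta and a gamma gene and to −0.67 for an alpha and a beta gene. Pcdhga11 and Pcdhb9, called genes that were both at 0 in C9-BACexp EGFP-KASH only replicate 2, had r = 0.77, and 0.13 without that library (n = 26).

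The beta and gamma sums varied in opposite directions (r = −0.49, n = 27), and they followed the markers of other cells in opposite ways. The beta sum was lower where microglial markers were higher (r = −0.75, Spearman rho −0.70, and r = −0.69 without the 2 libraries farthest from the median), and likewise for oligodendrocyte precursors (−0.74, −0.75 and −0.71) and oligodendrocytes (−0.71, −0.69 and −0.62). It was higher with excitatory neuron markers (0.62, 0.58 and 0.45) and deep-layer markers (0.53, 0.54 and 0.53), and lower in libraries with a higher total count (−0.48, −0.47 and −0.35). The gamma sum was higher with oligodendrocyte markers (0.66, 0.65 and 0.53), precursor markers (0.59, 0.48 and 0.47) and microglial markers (0.55, 0.57 and 0.66).

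The alpha sum had its largest r with microglial markers (−0.47, rho −0.36), which was −0.11 without the 2 farthest libraries and so rested on them. These are the sums of 3 clusters against 10 marker lists and the library total, given without a test. All 8 microglial genes were counted in every library, most at low values, such as Tmem119 at 0.129 to 1.69 CPM. CPM of a library share 1 total, and the part of other cells in the protocadherin values was not tested.

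Genes that act with the protocadherins were listed too, and all of their members were tested. Of 13 chromatin regulators, 4 were higher in C9-BACexp than in C57BL/6J NTG mice and none lower, where 6.60% of all genes were called, with a median log2 difference of 0.27 against 0.02 for all genes. Dnmt3a, which methylates DNA de novo, was at 398 ± 52.8 and 328 ± 96.5 CPM (log2 difference 0.30, SE 0.06, edgeR's quasi-likelihood F test, adjusted p = 0.00751). Tet1, which starts the removal of DNA methylation, was at 30.5 ± 2.96 and 21.5 ± 4.50 CPM (0.51, adjusted p = 0.00774 by edgeR).

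Tet2, of the same family as Tet1, had a log2 difference of 0.28 (adjusted p = 0.0114 by edgeR), and Wiz, a partner of the histone H3K9 methyltransferases, had 0.37 (adjusted p = 0.0184 by edgeR). With crRNA-13, Ehmt2, which is such a methyltransferase, was higher in C9-BACexp mice (0.34, adjusted p = 0.00818 by edgeR), the single call of the list in that comparison. Of 11 genes for DNA loops, Smc1a, a cohesin subunit, was higher in C9-BACexp NTG mice, at 34.0 ± 2.25 against 26.4 ± 2.27 CPM (0.36, adjusted p = 0.0229 by edgeR), and none was lower, a share of the list near that of all genes. Ctcf itself was not called, with group means of 49.0 to 54.6 CPM.

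The delta protocadherins lie outside the clusters, and 10 were tested. In 1 of them, again a share near that of all genes, the NTG genotypes differed. Pcdh9 was higher in C9-BACexp NTG mice, at 3020 ± 221 against 2276 ± 355 CPM (log2 difference 0.42, edgeR's quasi-likelihood F test, adjusted p = 0.00152). With EGFP-KASH only, where 2.86% of all genes were called, Pcdh20 and Pcdh18 were lower in C9-BACexp mice (−2.45 and −1.64, adjusted p = 0.0203 and 0.0356 by edgeR). Both had low counts. Pcdh20 was at 0 to 1.49 and at 1.19 to 3.36 CPM, with overlap of the groups. Pcdh18 was at 0.120 to 1.33 and at 1.57 to 2.81 CPM, without overlap. Both calls were lost without replicate 2 of the C9-BACexp mice.

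Of 21 binding and signalling partners, 2 were lower in C9-BACexp NTG mice and none higher, where 6.60% of all genes were called in either direction. Nlgn1, a neuroligin of excitatory synapses, was at 1560 ± 172 against 2038 ± 189 CPM, without overlap (−0.38, adjusted p = 0.000608 by edgeR). Nckap1, of the WAVE complex for actin branching, was at 148 ± 14.4 against 181 ± 34.9 CPM (−0.27, adjusted p = 0.0402 by edgeR), a call kept in 4 of the 11 fits that left out 1 library and lost by limma-trend. Of the other calls with NTG, those of Tet2 were kept in 7, of Wiz and Smc1a in 8, of Dnmt3a in 10 and of Pcdh9, Nlgn1 and Tet1 in all 11. In the remaining comparisons no gene of these 4 lists passed. Of all calls of the 4 lists, the fit with 2 factors kept those of Pcdh9, Nlgn1, Tet2 and Wiz alone. The replicate block with 4 factors kept those of Pcdh9 and Nlgn1 alone. None of the calls of the 4 lists held in the fit without the 4 factors, in which 6 of 21768 genes differed between genotypes with NTG, 4 with crRNA-13 and 4 with EGFP-KASH only. The log2 differences themselves moved little there for the calls with NTG and crRNA-13, such as −0.39 for Nlgn1, 0.41 for Pcdh9, 0.50 for Tet1 and 0.36 for Ehmt2, while those of Pcdh20 and Pcdh18 were −1.19 and −1.17.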

How the data were processed

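RNA was measured in 27 libraries of sorted EGFP-KASH+ nuclei. The values the authors deposited are expected counts per gene, estimated by Salmon 1.10.0 on mouse transcripts, both spliced and unspliced, of the NCBI Annotation Release 109 with 3 human C9ORF72 transcripts and EGFP-KASH added, and summarised by tximport (lengthScaledTPM) in R 4.3.1. A mark of the authors keeps 20991 rows, 55 of the 58 members among them.

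After rounding, TMM scaling and the filterByExpr filter (a count of 10, a total of 15), 21768 genes were fitted in edgeR 4.0.16 (R 4.3.3) with its robust quasi-likelihood F test. The model held the 6 groups and 4 factors taken from the residuals of a first fit, as in the RUVr method. The study used 4 RUVSeq factors without naming the method, so this choice is an assumption. For 5 comparisons (3 between genotypes, and C9-BACexp crRNA-13 mice compared with each of the other C9-BACexp groups), Benjamini-Hochberg adjustment was made over all p-values at once, with limits of 1.2 for the fold change and 0.05 for the adjusted p. Those between C57BL/6J crRNA-13 and NTG mice were adjusted alone, at 1.25 and 0.01, and those of the 4 others within each comparison, at 1.2 and 0.05. SE was taken as the size of the log2 fold change over the root of F. The procedure was tested on simulated counts.

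Spread is the pooled SD within groups of log2(CPM + 0.5). Positions are from GENCODE vM39. Named in full were called members, C-type isoforms, the 3 highest members of each cluster by mean CPM, and the 2 with the widest and the 2 with the narrowest spread, 26 in all. Members and gene lists were chosen with earlier results of these data known. Alternatives used 2 or no factors, limma-trend (limma 3.58.1), DESeq2 1.42.0, RLE size factors, no filter, adjustment within each comparison, a replicate block, a pseudocount of 2 CPM and fits without each library; those without factors by limma and DESeq2 and the block without factors were chosen after seeing the data. The design text calls each replicate independent, and the labels give neither sex nor batch. Deposited columns of the authors' own comparisons were not used.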

Additional observations from a re-analysis of the deposited data

Results flagged for a closer look

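In 12 of 116 groups of 4 to 6 libraries tested, over the 26 members named in full and the 3 cluster sums, 1 library stood apart from the rest by Dixon's criterion, which chance gives in about 1 of 20 groups.

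In the alpha cluster, Pcdha1 was 52.4 CPM in C9-BACexp NTG replicate 5, where the next value was 29.1 CPM. Pcdha5 was 0 in C9-BACexp crRNA-13 replicate 2, where the next was 75.5 CPM. Pcdha7 was 0.353 CPM in C57BL/6J EGFP-KASH only replicate 5 and 1.93 CPM in C9-BACexp NTG replicate 2, each the single library of its group above 0. Pcdhac1 was 2.52 CPM in C9-BACexp NTG replicate 4, next to 0.828 CPM.

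In the gamma cluster, Pcdhga3 was 49.9 CPM in C57BL/6J EGFP-KASH only replicate 3, where the next was 82.0 CPM. Pcdhga4 was 0 in C9-BACexp NTG replicate 2, where the next was 49.4 CPM. Pcdhgc3 was 0.732 CPM in C57BL/6J EGFP-KASH only replicate 5, the others being at 0. Pcdhgc4 was 0.534 CPM in C9-BACexp NTG replicate 1 and 0.270 CPM in replicate 3 of those with crRNA-13, against at most 0.0823 and 0.0733 CPM in the others. C57BL/6J NTG replicate 5 stood out in 2 C-type isoforms, with Pcdhgc5 at 32.3 CPM (next 19.5) and Pcdhgc3 at 1.35 CPM (next 0.138). No beta gene met the criterion.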

How the results depend on the processing

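The counts of called members depended on the model. With no factors, with 2 factors, with limma-trend without factors and with a replicate block without factors, 0 members were called in each comparison. In the genotype comparisons of the NTG, the crRNA-13 and the EGFP-KASH only mice, and between C9-BACexp crRNA-13 and NTG and crRNA-13 and EGFP-KASH only mice, in this order, limma-trend called 0, 0, 3, 0 and 2, DESeq2 1, 3, 6, 1 and 4, DESeq2 without factors 0, 2, 0, 0 and 0, and adjustment within each comparison 0, 0, 3, 0 and 0. Between C57BL/6J crRNA-13 and NTG mice, NTG and EGFP-KASH only mice of C9-BACexp and of C57BL/6J, C57BL/6J crRNA-13 and EGFP-KASH only mice, and in the interaction, DESeq2 called 3, 4, 0, 5 and 3, DESeq2 without factors 1, 0, 1, 2 and 1, and limma-trend 0, 2, 0, 0 and 0. Over all 21768 genes DESeq2 called 57 to 2252 in the 10 comparisons. The cause of these differences was not tested. RLE size factors gave the main counts, and without the filter 1 member fewer was called between C9-BACexp crRNA-13 and EGFP-KASH only mice.

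With each library left out in turn, called members ranged from 0 to 1 between genotypes with NTG, 0 to 2 with crRNA-13 and 1 to 4 with EGFP-KASH only. Among C9-BACexp mice they ranged from 0 to 1 between crRNA-13 and NTG, 0 to 4 between crRNA-13 and EGFP-KASH only and 0 to 2 between NTG and EGFP-KASH only. They ranged from 0 to 1 between C57BL/6J crRNA-13 and EGFP-KASH only mice and stayed at 0 in the 3 others. Without C9-BACexp EGFP-KASH only replicate 2, the genotype comparison with that vector kept 1 call, Pcdhgb8, and that between crRNA-13 and EGFP-KASH only kept 0. That omission reversed Pcdhga11 (0.0047 between genotypes and −0.20 for crRNA-13) and Pcdhb9 (−0.24), whose log2 differences over all such fits were −3.43 to 0.0047, −0.20 to 3.26 and −0.24 to 2.69. The call of Pcdha7 between genotypes with crRNA-13 was lost without C57BL/6J replicate 1, 2 or 5 or C9-BACexp replicate 2 or 4, and without replicate 6 of the latter 2 members were called. A call appeared between genotypes with NTG without C57BL/6J replicate 5 or C9-BACexp replicate 2, and between crRNA-13 and NTG without the latter. Between C9-BACexp NTG and EGFP-KASH only mice, 2 calls appeared without EGFP-KASH only replicate 3 and 1 without NTG replicate 6, and between C57BL/6J crRNA-13 and EGFP-KASH only mice 1 appeared without EGFP-KASH only replicate 2.

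The same replicate numbers occur in several groups, and the main model did not pair mice by them. Of 48 same-numbered pairs of libraries, 10 had a correlation of their residuals above 0.1 (range −0.16 to 0.29). No such count is given for pairs with different numbers, so this cannot decide whether the numbers mark a pairing. The paper describes the groups as balanced for sex and litter. A replicate block with 4 factors called 0, 0, 1, 0 and 1 members in the first 5 comparisons and 1 between C9-BACexp NTG and EGFP-KASH only mice.

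Of the recomputed log2 differences of called members, 67 kept their call, 64 kept their direction alone and 3 reversed. All 297 recomputed differences of cluster sums moved by less than the SD of the sum within groups (0.21 for alpha, 0.25 for beta and 0.27 for gamma, log2 scale). The differences were themselves of about that size or smaller, so this limit could hardly be passed and does not show stability. Several changed sign with 1 library left out. Between genotypes, alpha with NTG ranged from −0.19 to 0.0065, beta with crRNA-13 from −0.036 to 0.34 and gamma with EGFP-KASH only from −0.35 to 0.0095. With a pseudocount of 2 CPM the median SD of members was 0.48 (alpha), 0.25 (beta) and 0.47 (gamma). Depth limits Pcdha7, Pcdhgc3, Pcdhgc4 and Pcdhb1 to Pcdhb5, which lay at or near the floor of 3 counts in many libraries.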
